A study of Homo sapiens with 6 samples.

Results

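Fatty acid synthesis and desaturation is represented here by 10 genes, SREBF1, ACLY, ACSS2, FASN, SCD, ELOVL6, FADS1, FADS2, GPAM and PNPLA3, picked by symbol from a table of read counts for 52408 genes. All 10 were found in the table and all 10 had enough reads to be tested. The cells were HepG2, a human liver cancer line that makes many proteins of the hepatocyte and that derives from a single tumour. They were kept for 24 h in serum-containing medium with 50 µM ellagic acid (EA), a polyphenol of berries and nuts, or with an equal volume of its solvent DMSO, so that both groups received DMSO. Each group had 3 libraries. The labels do not say whether these were separate cultures, so the p-values rest on the variation among these libraries alone, and that variation may be technical. The study set out to find the signalling pathways on which EA acts in liver cancer cells.

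Fatty acids are built in the cytosol from acetyl-CoA, which ATP citrate lyase (ACLY) makes from citrate and acetyl-CoA synthetase (ACSS2) from acetate. Fatty acid synthase (FASN) makes mainly palmitate, the elongase ELOVL6 lengthens it, and the desaturases SCD, FADS1 and FADS2 add double bonds. GPAM, a mitochondrial acyltransferase, begins the assembly of glycerolipids, PNPLA3 encodes a lipid droplet protein whose variants are linked to fatty liver, and SREBF1 encodes the membrane-bound transcription factor SREBP-1, which activates most of these genes when insulin is high. The liver is a main site of this synthesis, and many hepatocellular carcinomas keep it active.

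All 10 genes were lower with EA, over a range from 1.145-fold for ACSS2 to 43.5-fold for GPAM. FADS2 was 9.25-fold lower, PNPLA3 6.47-fold and SCD 4.22-fold. FADS1 and FASN were 2.97-fold and 2.88-fold lower, and ELOVL6, SREBF1 and ACLY between 1.52-fold and 1.89-fold. The median log2 fold change of the 10 genes was -1.55, against 0.00 over the 15648 genes tested. This count has to be read against a wide response, since 81% of all tested genes were called by edgeR at an adjusted p under 0.05, and 40.5% were called lower. At least 2-fold lower were 6 of the 10 genes and 21.5% of all tested genes, and at least 4-fold lower were 4 of the 10 and 7.08%. The ranges of the EA and DMSO libraries did not overlap in 9 of the 10 genes and in 82.9% of all tested genes. Values are relative to the other genes of a library. In bulk RNA, fewer cells that express a gene and less of its RNA per cell cannot be told apart.

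Reads assigned to genes numbered 22987425 to 25973621 per DMSO library and 15738089 to 19202292 per EA library. Member genes had between 33 and 32135 reads in a library. EA replicate 3 stood away from the other EA libraries in its counts across genes (chi-square per degree of freedom 13.4 and 15.5 against them, and 3.89 between those). Of the 10 genes, GPAM and PNPLA3 moved most in fold change when it was left out, and both are given with and without it. Other genes moved too, such as ACSL4, from -1.13 to -1.31 on the log2 scale, and are given with it unless stated. Hepatocyte markers fitted the labelled cell type in DMSO, where ALB stood at 8430.1 ± 517 CPM (read counts scaled to the size of the library, by TMM; mean ± SD, n = 3 per group here and below). All 10 of these markers were called lower with EA, as were 40.5% of all tested genes. Their summed level was 50288 to 53140 CPM per library in DMSO and 12184 to 12816 CPM in EA. This fall went along with that of the lipid genes, and its part in it was not tested. Among markers of other cells, PTPRC and CD3E of leukocytes, COL1A2 and DCN of fibroblasts and ADIPOQ of adipocytes had 0 reads in all 6 libraries. Such zeros may come from the counting or its annotation. Other markers of these lists had reads. PDGFRB went from 16.2 ± 0.422 to 5.41 ± 0.816 CPM and CIDEC from 9.41 ± 1.26 to 2.21 ± 0.310 CPM. COL1A1 had 57 reads in DMSO and 2 in EA. LYZ, which macrophages express strongly, went from 1810.1 ± 45.3 to 324 ± 33.0 CPM. CD14 of monocytes, low in both groups, went from 1.66 ± 0.236 to 0.215 ± 0.227 CPM (log2 fold change -2.88, SE 0.44). It had 124 reads in DMSO and 12 in EA. The summed level of these 4 leukocyte markers was 1759 to 1839.7 CPM in DMSO and 289 to 354 CPM in EA. That of 5 fibroblast and stellate cell markers was 16.4 to 17.5 and 4.56 to 6.34 CPM, and that of 4 adipocyte markers 8.06 to 10.7 and 1.93 to 2.76 CPM. The 3 matched of 4 endothelial markers summed to 2.32 to 2.44 and 3.07 to 3.92 CPM, but did not move together. CDH5 fell (log2 fold change -1.94, 96 reads in DMSO and 18 in EA) and VWF rose (1.53, 80 and 168 reads). KDR had 0 reads in DMSO and 1 in EA.

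**Figure D1:**
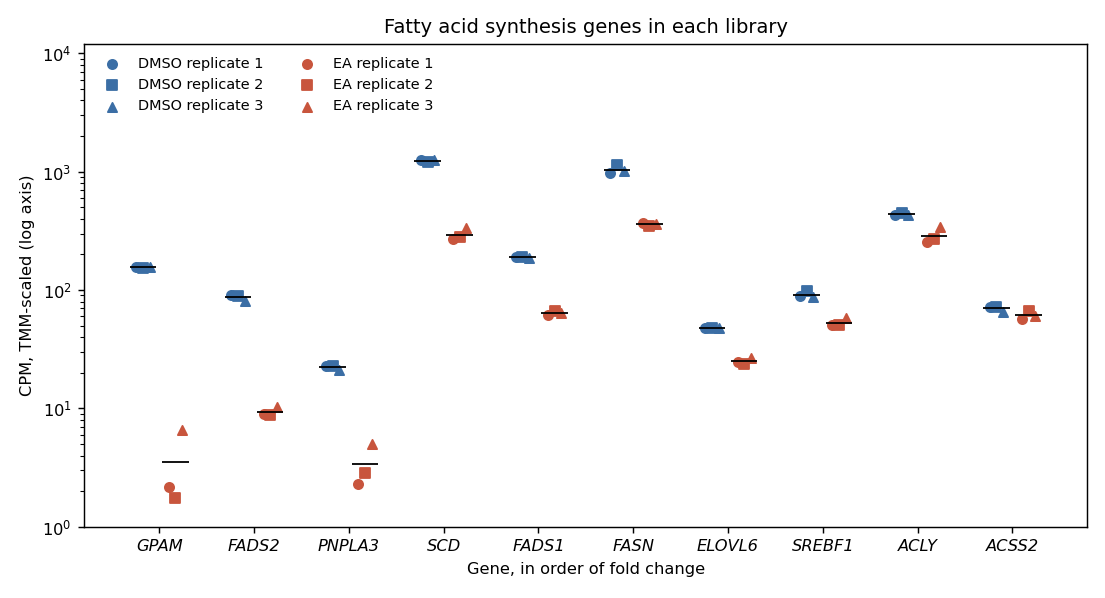
Normalised level of each gene in each library (vertical log axis, CPM with TMM scaling), with DMSO libraries in blue, EA libraries in red, a marker shape per replicate number and a black bar at each group mean. GPAM and PNPLA3 show the widest spread among EA libraries, with EA replicate 3 highest, and ACSS2 is the gene whose groups overlap.

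SREBF1 (ENSG00000072310, chromosome 17) stood at 88.5, 98.5 and 87.7 CPM with DMSO and at 50.3, 50.5 and 57.8 CPM with EA. Each EA value lay below each DMSO value, and SREBF1 fell by 0.79 on the log2 scale (SE 0.08, adjusted p = 1.78e-07 in edgeR). Its paralog SREBF2, whose product mainly drives cholesterol synthesis, went from 202 ± 5.78 to 172 ± 7.54 CPM, a log2 fold change of -0.23 (SE 0.06, adjusted p = 0.00391 in edgeR), which was not called with a minimum fold of 1.2. Within each library SREBF1 had 43.3%, 47.9% and 44.9% as many reads as SREBF2 in DMSO and 29.5%, 30.5% and 32.0% in EA. The EA ratios were thus all below the DMSO ratios, a difference of -0.56 on the log2 scale (SD of the log2 ratio 0.07 in DMSO and 0.06 in EA). The two-sided exact permutation test gave p = 0.1, the smallest that 3 against 3 libraries allow, and 0.133 after adjustment over the 4 ratios compared. The count table does not separate the SREBP-1a and SREBP-1c transcripts. SREBF1 shares 556 exonic bases with RAI1 on the opposite strand in GENCODE 29. With no strand setting of the counting stated, reads from that stretch cannot be told apart. RAI1 itself was not called (log2 fold change 0.03, SE 0.08).

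The enzymes that supply acetyl-CoA had the smallest estimated fold changes of the 10 genes, though the interval of ACLY overlapped that of SREBF1. ACLY (ENSG00000131473, chromosome 17) measured 434, 444 and 433 CPM with DMSO and 254, 271 and 338 CPM with EA. It fell by 0.60 on the log2 scale (SE 0.09, adjusted p = 3.82e-05 in edgeR), and the EA libraries did not reach the DMSO range. Without EA replicate 3 its log2 fold change was -0.76. ACSS2 (ENSG00000131069, chromosome 20) measured 72.0, 72.4 and 65.5 CPM with DMSO and 57.3, 66.0 and 59.9 CPM with EA, so that EA replicate 2 lay above DMSO replicate 3. Its log2 fold change was -0.20 (SE 0.08, adjusted p = 0.0285 in edgeR), and this call was lost in 8 of 17 alternative analyses, where adjusted p reached 0.62 with a minimum fold of 1.2. Leaving out DMSO replicate 1, DMSO replicate 2 or EA replicate 1 was enough to lose it (adjusted p = 0.0659, 0.065 and 0.0911 in edgeR).

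FASN (ENSG00000169710, chromosome 17), which carries all the catalytic steps of palmitate synthesis on 1 polypeptide, measured 970.0, 1132 and 1006 CPM with DMSO and 368, 346 and 364 CPM with EA. It fell by 1.53 on the log2 scale (SE 0.07, adjusted p = 3.37e-11 in edgeR), with the groups far apart. ELOVL6 (ENSG00000170522, chromosome 4) measured 47.4, 47.9 and 47.4 CPM with DMSO and 24.7, 23.9 and 26.8 CPM with EA. The log2 fold change of this elongase was -0.92 (SE 0.08, adjusted p = 2.96e-08 in edgeR), and again no EA library reached the DMSO range.

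The desaturases fell further than the synthase and the elongase, apart from FADS1, whose interval overlapped that of FASN. SCD (ENSG00000099194, chromosome 10) introduces the double bond of oleate and palmitoleate. It measured 1251, 1214 and 1256 CPM with DMSO and 268, 279 and 336 CPM with EA, and fell by 2.08 on the log2 scale (SE 0.08, adjusted p = 5.40e-12 in edgeR). FADS1 (ENSG00000149485) and FADS2 (ENSG00000134824) lie beside each other on chromosome 11 and act in turn on polyunsaturated fatty acids. FADS1 measured 192, 190.3 and 188 CPM with DMSO and 61.7, 66.8 and 63.8 CPM with EA (log2 fold change -1.57, SE 0.06, adjusted p = 5.53e-12 in edgeR). FADS2 measured 90.5, 89.5 and 81.0 CPM with DMSO and 8.96, 8.85 and 10.4 CPM with EA (log2 fold change -3.21, SE 0.09, adjusted p = 1.35e-13 in edgeR). In all 3 desaturase genes every EA library lay below every DMSO library.

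The estimated fall of FADS2 was larger than that of its neighbour. FADS2 had 47.1%, 47.0% and 43.1% as many reads as FADS1 with DMSO and 14.6%, 13.3% and 16.3% with EA. The log2 ratio differed by -1.64 between groups (SD 0.07 in DMSO and 0.15 in EA), and the exact two-sided permutation test gave p = 0.1, the smallest possible (0.133 adjusted over 4 ratios). FADS3, the remaining gene of this cluster, was not called (log2 fold change 0.07, SE 0.09), with 24.8 ± 1.24 CPM in DMSO and 26.1 ± 1.56 CPM in EA. Reads of FADS3 came to 26.9%, 29.3% and 29.5% of those of FADS2 in DMSO and to 276%, 289% and 268% in EA, a difference of 3.28 on the log2 scale (SD 0.07 and 0.05; exact permutation p = 0.1, 0.133 adjusted over 4 ratios). Other genes nearby also differed: the flap endonuclease gene FEN1 had a log2 fold change of -2.22 (SE 0.17), TMEM258 of -1.37, RAB3IL1 of -0.69 and MYRF of -0.25, a call lost without EA replicate 2 (-0.18, adjusted p = 0.0614 in edgeR).

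The sequence at the starts of these genes is shown for 2 reasons. Some annotated starts of FADS2 lie close to that of its neighbour FADS1, and these genes moved by different amounts. Of the 10 genes, SCD had the highest level per length in DMSO and GPAM the largest fold change. RefSeq promoter windows (GRCh38.p14, 250 bases before to 50 after an annotated start, gene strand, 5′ to 3′) were matched for 8 of the 10 genes; FASN and PNPLA3 were not matched. FADS1 is read from the minus strand (chr11:61816954-61817253) and FADS2 from the plus strand (chr11:61816154-61816453). SCD is on the plus strand (chr10:100346983-100347282) and GPAM on the minus strand (chr10:112183716-112184015). Capitals mark CCAAT, the letters bound by NF-Y, and GGGCGG, the GC box, on either strand.
FADS1: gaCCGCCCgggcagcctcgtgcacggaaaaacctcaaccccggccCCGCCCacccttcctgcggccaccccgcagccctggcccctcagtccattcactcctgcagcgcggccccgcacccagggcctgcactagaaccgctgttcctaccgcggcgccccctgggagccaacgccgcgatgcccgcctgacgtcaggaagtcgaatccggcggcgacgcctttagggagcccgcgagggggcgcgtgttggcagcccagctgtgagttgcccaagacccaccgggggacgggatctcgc
FADS2: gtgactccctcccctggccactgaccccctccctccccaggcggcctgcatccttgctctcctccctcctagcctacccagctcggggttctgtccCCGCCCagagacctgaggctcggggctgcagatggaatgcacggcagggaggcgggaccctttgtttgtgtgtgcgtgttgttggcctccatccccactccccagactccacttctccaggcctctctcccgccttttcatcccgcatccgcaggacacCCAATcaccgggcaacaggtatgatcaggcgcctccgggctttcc
SCD: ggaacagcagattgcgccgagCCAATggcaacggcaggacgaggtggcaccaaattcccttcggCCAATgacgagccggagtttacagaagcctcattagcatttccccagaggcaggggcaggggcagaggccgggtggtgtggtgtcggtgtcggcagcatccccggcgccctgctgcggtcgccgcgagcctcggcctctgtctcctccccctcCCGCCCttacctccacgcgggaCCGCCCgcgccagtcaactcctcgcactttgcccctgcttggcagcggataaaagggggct
GPAM: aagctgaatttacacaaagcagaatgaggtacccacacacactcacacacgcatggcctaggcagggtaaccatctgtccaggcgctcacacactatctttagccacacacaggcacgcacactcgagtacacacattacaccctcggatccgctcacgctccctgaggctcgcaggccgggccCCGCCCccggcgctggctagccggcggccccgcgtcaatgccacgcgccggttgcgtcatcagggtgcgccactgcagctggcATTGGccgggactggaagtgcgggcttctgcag
The 2 starts of FADS2 that were matched lie 599 and 800 bases inside FADS1, which runs the other way. Any other start of FADS2 was not examined, and counts per gene do not show which start these cells used. FADS1 and FADS2 share 490 exonic bases in GENCODE 29. Without a stated strand setting, reads from that stretch cannot be assigned to one of them. FADS2 also shares 49 exonic bases with FEN1 on the same strand. The windows of FADS1 and FADS2 shown here do not overlap, and FADS1 holds 2 GC boxes where FADS2 holds 1 GC box and 1 CCAAT.

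Of 11 windows of the 8 matched genes, 10 held GGGCGG and 6 held CCAAT, against 44.95% and 34.6% of the 35116 windows of this length. By gene, 8 of 8 held GGGCGG and 5 of 8 held CCAAT in at least 1 window. The shares over all windows are per window, and no share per gene was computed. The CCAAT matches of FADS2 and GPAM lie after the annotated start, beginning at bases 6 and 18 of the gene. The windows of ACLY overlap each other, as do those of FADS2, so the 11 windows are not independent. Their GC content ran from 55.3% to 73.3%, against a median of 58.7% over all windows. Its part in the GGGCGG matches was not tested. SCD held 2 CCAAT boxes, starting 229 and 186 bases before the gene start. ACLY held 2, the same boxes in each of its overlapping windows. TCACNCCAC, the letters of a sterol regulatory element through which SREBP can bind, was in 0 of 11 windows and in 1.13% of all windows. The E-box CACGTG was in 0 of 11 and in 7.26% of all. Both strands were searched, and none of these motifs contains another. A match is only a run of letters, and a missing match says only that these letters are not in these windows.

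GPAM and PNPLA3, the genes that act on glycerolipids, were among the most strongly lowered. GPAM (ENSG00000119927, chromosome 10) measured 155, 155 and 156 CPM with DMSO and 2.18, 1.75 and 6.61 CPM with EA, from 35, 33 and 125 reads. EA replicate 3 was the highest of the EA libraries and all were far below DMSO. GPAM fell by 5.44 on the log2 scale (SE 0.40, adjusted p = 9.13e-05 in edgeR), or 43.5-fold, and 81.0-fold without EA replicate 3. Only 42 of 15648 tested genes had a log2 fold change this low or lower. PNPLA3 (ENSG00000100344, chromosome 22) measured 22.9, 22.6 and 21.2 CPM with DMSO and 2.30, 2.86 and 5.02 CPM with EA, from 37, 54 and 95 reads. It fell by 2.69 on the log2 scale (SE 0.20, adjusted p = 1.13e-07 in edgeR), and by 3.12 without EA replicate 3, again the highest EA library. PNPLA3 shares 148 exonic bases with SAMM50 on the same strand in GENCODE 29, a mitochondrial membrane gene whose log2 fold change was -1.03 (SE 0.08).

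**Figure D2:**
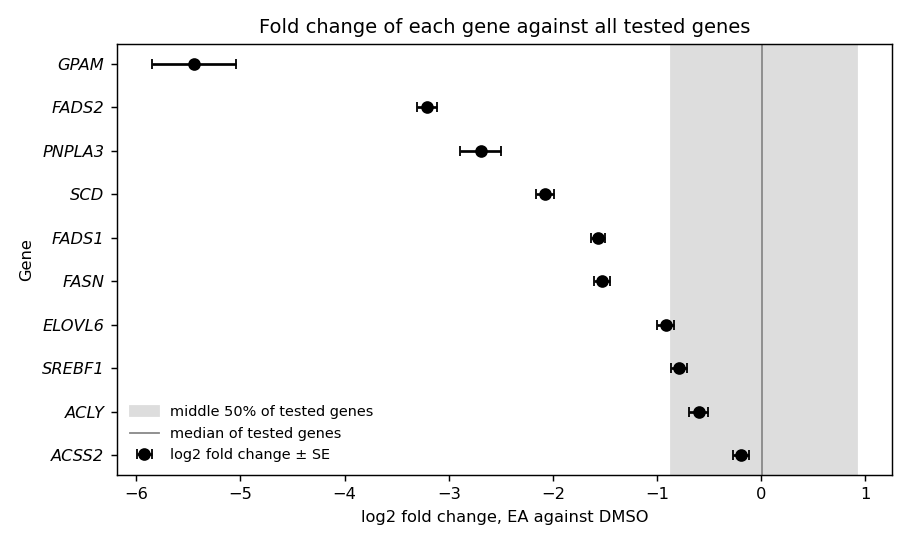
Log2 fold change of EA against DMSO for each gene (horizontal axis; points are estimates and bars are SE from edgeR), with the median of all 15648 tested genes as a line and their middle 50%, from -0.86 to 0.92, shaded. GPAM, FADS2, PNPLA3, SCD, FADS1, FASN and ELOVL6 lie below the shaded band, and SREBF1, ACLY and ACSS2 lie inside it.

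In the order of fold changes, intervals of 2 SE overlapped between FADS2 and PNPLA3, between FADS1 and FASN, between ELOVL6 and SREBF1 and between SREBF1 and ACLY. GPAM stood apart from FADS2, PNPLA3 from SCD, SCD from FADS1, FASN from ELOVL6 and ACLY from ACSS2. Together the 10 genes took 0.329%, 0.347% and 0.333% of all reads with DMSO and 0.112%, 0.112% and 0.125% with EA. The mix of these reads is given without a test. SCD made up 37.6%, 35.03% and 37.6% of these reads in DMSO and 24.4%, 24.97% and 26.5% in EA. ACLY held 13.1%, 12.8% and 12.9% in DMSO and 23.1%, 24.3% and 26.7% in EA, ranges that do not overlap, while FASN held 29.2%, 32.7% and 30.1% in DMSO and 33.6%, 31.0% and 28.7% in EA, ranges that overlap.

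Levels of different genes were compared per kilobase of exonic length (GENCODE 29, all exons of a gene merged, which lowers the value of genes with many alternative exons). In DMSO the order was SCD (231 ± 4.25 CPM per kb), FASN (111 ± 9.07), ACLY (83.7 ± 1.198), FADS1 (18.6 ± 0.192), GPAM (15.8 ± 0.0782), ACSS2 (13.0 ± 0.720), SREBF1 (11.4 ± 0.750), FADS2 (7.89 ± 0.474), PNPLA3 (6.88 ± 0.293) and ELOVL6 (6.52 ± 0.0408). The libraries of ACSS2 and SREBF1 overlapped, as did those of PNPLA3 and ELOVL6, and the other neighbours were apart. With EA the order per length was ACLY (55.1 ± 8.57 CPM per kb), SCD (54.9 ± 6.86), FASN (38.4 ± 1.28), ACSS2 (11.3 ± 0.829), SREBF1 (6.58 ± 0.528), FADS1 (6.26 ± 0.250), ELOVL6 (3.45 ± 0.202), PNPLA3 (1.05 ± 0.444), FADS2 (0.852 ± 0.0763) and GPAM (0.358 ± 0.274). ACLY and SCD overlapped there, as did SREBF1 and FADS1, and PNPLA3 and FADS2. GPAM went from the fifth place to the last.

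**Figure D3:**
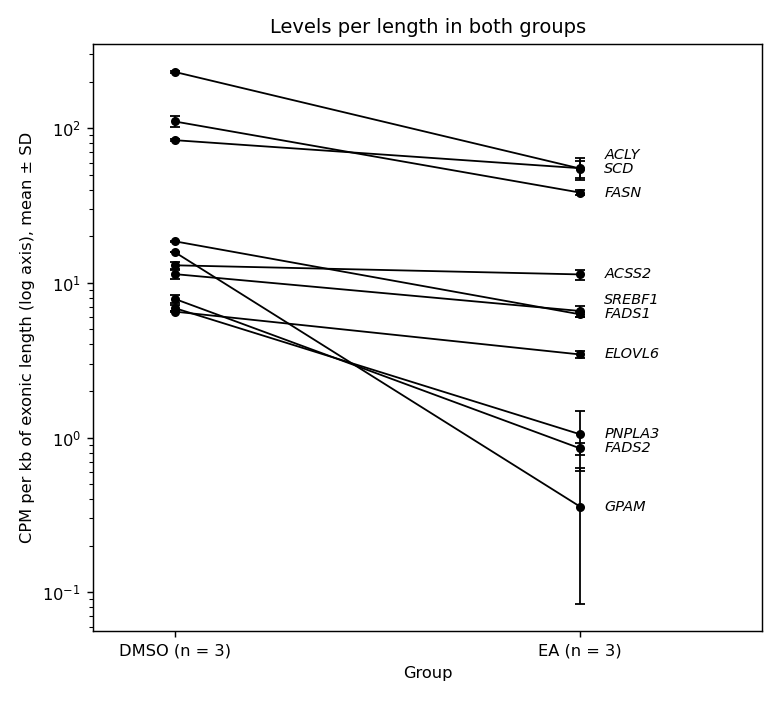
Level per kilobase of exonic length (vertical log axis, CPM per kb) of each gene in DMSO and EA; points are means of 3 libraries, bars are SD, and lines join the groups for 1 gene. SCD, FASN and ACLY are the 3 highest in both groups, and GPAM crosses 5 genes to become the lowest with EA.

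Other genes of the pathway were read from lists that hold no member. Among 14 regulators of SREBP processing and lipogenic transcription, 12 were tested, of which 6 fell, 4 rose and 2 did not pass (median log2 fold change -0.17; 40.5% of all tested genes were called in each direction). MLXIPL, which encodes the glucose-responsive factor ChREBP, went from 134 ± 10.4 to 10.6 ± 2.44 CPM (log2 fold change -3.66, SE 0.13). MID1IP1, which promotes acetyl-CoA carboxylase activity, had a log2 fold change of -0.77, the SREBP-cleaving protease gene MBTPS2 of -0.63 and the oxysterol receptor gene NR1H3 of -0.57. SCAP, the escort of SREBP, fell by 0.24 on the log2 scale, a call lost with a minimum fold of 1.2. INSIG2, whose product holds SCAP and SREBP in the endoplasmic reticulum, rose from 122 ± 10.8 to 258 ± 28.6 CPM (log2 fold change 1.08, SE 0.09). PPARGC1B (0.57), NR1H2 (0.55) and MBTPS1 (0.18) also rose, the last a call lost without EA replicate 3 (0.11, adjusted p = 0.0798 in edgeR) or any 1 of the DMSO libraries. RXRA and MLX were not called. INSIG1 had 2 reads in DMSO and 4 in EA over the 3 libraries of each group and THRSP had 4 and 0, so neither was tested. Counts this low may come from the table rather than the cells, since the annotation and filters used are unknown.

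In a list of 11 genes around the supply of acetyl-CoA, malonyl-CoA and NADPH, all 9 that were tested fell (median log2 fold change -1.68). Of all tested genes, 40.5% were called lower. The list also holds MLYCD, which breaks malonyl-CoA down (-0.60, SE 0.15). IDH1, a source of cytosolic NADPH, went from 540.3 ± 25.6 to 45.7 ± 7.07 CPM (-3.56, SE 0.10). ACSS1, the mitochondrial counterpart of ACSS2, went from 64.1 ± 2.76 to 2.58 ± 0.702 CPM (-4.62, SE 0.13). The mitochondrial citrate carrier SLC25A1 went from 100.2 ± 6.74 to 16.4 ± 1.52 CPM (-2.61, SE 0.09), and ACACB, an acetyl-CoA carboxylase, from 20.5 ± 0.610 to 4.78 ± 0.795 CPM (-2.10, SE 0.13). ACACA, the main carboxylase of fatty acid synthesis, was not matched in the table and is not analysed here, and ME1 had 0 reads in all libraries. All 37 genes named MT- in the table also stood at 0, so such zeros may come from the counting or its annotation, which are not stated, and need not mean that a gene was silent.

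The remaining elongation and desaturation genes were mixed, with 8 of 14 tested genes lower, 3 higher and 3 not called (median -0.31). Over all tested genes, 40.5% were called in each direction. ELOVL2, an elongase of polyunsaturated fatty acids, went from 169 ± 7.18 to 26.2 ± 3.10 CPM (-2.69, SE 0.09). CYB5A, the cytochrome that passes electrons to the desaturases, went from 63.5 ± 1.22 to 7.504 ± 1.65 CPM (-3.07, SE 0.12), and TECR and HACD1 of the elongation cycle had log2 fold changes of -1.05 and -1.76. In the other direction ELOVL1 went from 57.3 ± 4.29 to 160.5 ± 11.5 CPM (1.49, SE 0.08), ELOVL4 from 0.603 ± 0.108 to 4.43 ± 0.241 CPM (2.86, SE 0.23) and ELOVL5 from 185 ± 7.53 to 232 ± 23.8 CPM (0.33, SE 0.08), the last a call lost with a minimum fold of 1.2. HACD3, HACD4 and FADS3 were not called. SCD5, the paralog of SCD, had 4 reads over 3 libraries with DMSO and 0 with EA and was not tested, like ELOVL3 and FADS6.

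Genes that activate fatty acids split as well. Of 8 genes of this kind, 4 fell, 3 rose and ACSL3 was not called (median -0.57). Each direction held 40.5% of all tested genes. ACSL5 rose from 233 ± 7.79 to 501 ± 28.1 CPM (1.11, SE 0.07), ACSL1 from 109 ± 1.29 to 235 ± 39.9 CPM (1.11, SE 0.10) and SLC27A4 from 57.1 ± 1.56 to 97.4 ± 0.240 CPM (0.77, SE 0.07). ACSL4, which prefers arachidonate, fell from 727 ± 23.8 to 333 ± 60.4 CPM (-1.13, SE 0.11), and ACSL6, SLC27A2 and SLC27A5 had log2 fold changes of -5.46, -2.40 and -1.15. The value of ACSL6 rests on 7 reads over the EA libraries against 443 over the DMSO libraries, and it was -6.15 without EA replicate 1 and -4.87 without EA replicate 2.

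Among genes that act beside or after GPAM in triglyceride assembly, and related lipases, levels rose in 8 of 14 tested genes and fell in 6 (median 0.47). The share over all tested genes was 40.5% in each direction. The acyltransferases GPAT3 and GPAT4, which do the same step as GPAM in the endoplasmic reticulum, both rose. GPAT3 measured 271 ± 18.2 CPM with EA against 43.8 ± 0.627 CPM with DMSO (2.63, SE 0.07), and GPAT4 152 ± 11.8 against 102 ± 1.74 CPM (0.57, SE 0.07). AGPAT5 rose from 78.3 ± 5.88 to 415 ± 9.30 CPM (2.40, SE 0.07), the phosphatidate phosphatase LPIN1 from 50.4 ± 1.52 to 193 ± 18.6 CPM (1.94, SE 0.08) and ABHD5, an activator of triglyceride lipase, from 12.1 ± 0.788 to 68.0 ± 5.04 CPM (2.48, SE 0.09). Those that make triglyceride itself fell, DGAT1 from 55.4 ± 1.93 to 15.7 ± 1.02 CPM (-1.82, SE 0.08) and DGAT2 from 56.4 ± 2.44 to 11.1 ± 3.39 CPM (-2.34, SE 0.17). LPIN3 and AGPAT1 fell by 0.92 and 0.61 on the log2 scale. PNPLA2, the triglyceride lipase related to PNPLA3, fell by 0.38 (SE 0.08). TM6SF2 had 3 reads over 3 libraries with DMSO and 0 with EA, and GPAT2 had 0 and 1, so these were not tested.

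The nearest pathways went mostly the same way as the 10 genes. In a list of cholesterol synthesis up to lanosterol with a side branch, 10 of 11 genes fell and 1 rose (median -1.19). For this list and the next, the share over all tested genes was 40.5% called lower and 40.5% called higher. FDFT1, LSS, FDPS and MVK had log2 fold changes of -2.26, -2.61, -2.08 and -1.46. The gene that rose was that of the side branch, GGPS1, which makes geranylgeranyl diphosphate. It went from 30.9 ± 0.837 to 44.2 ± 6.13 CPM (0.52, SE 0.10). In a list of 16 genes of mitochondrial fatty acid oxidation, which also holds its regulator PPARA (-0.71, SE 0.14), 14 fell. ETFDH was not called (-0.03, SE 0.12). CPT1A, which admits fatty acids to the mitochondrion, rose from 45.6 ± 1.056 to 85.9 ± 3.87 CPM (0.91, SE 0.07). The median there was -0.95, with HADH at -2.51, ECHS1 at -1.90, ECI1 at -1.83 and HADHB at -1.13. The 3 medians, -1.55, -1.19 and -0.95, are descriptions, and their differences were not tested.

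**Figure D4:**
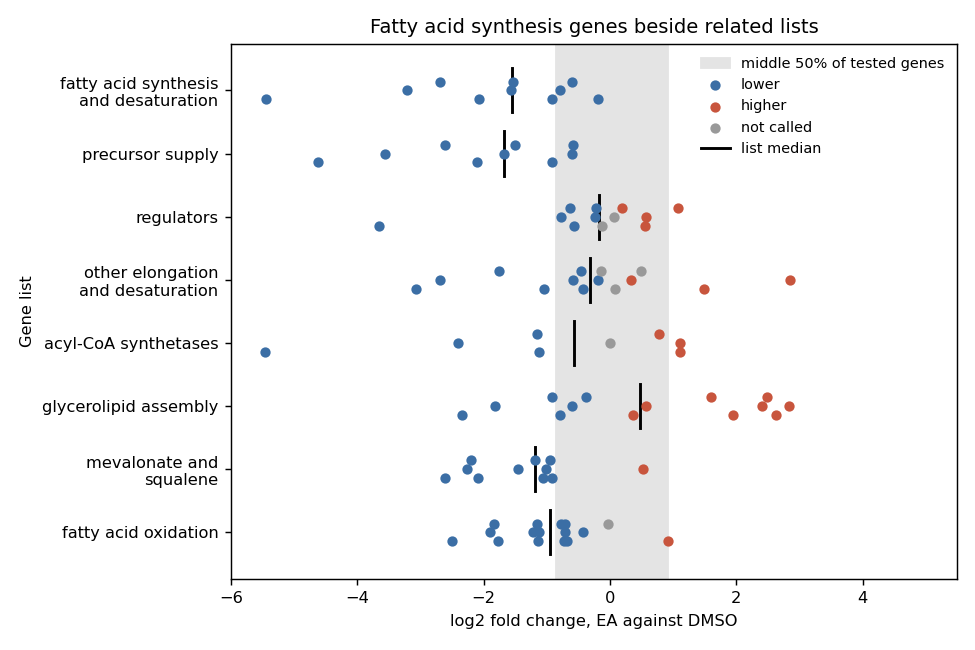
Log2 fold change of EA against DMSO (horizontal axis) of each tested gene in the 10 genes and 7 related lists, 1 point per gene, blue for lower, red for higher and grey for not called at an adjusted p of 0.05; black bars are list medians and the shaded band holds the middle 50% of tested genes. The 10 genes and the precursor supply list hold only lower genes, and glycerolipid assembly is the list whose median (0.47) lies above 0.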

How the data were processed

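RNA sequencing of 6 HepG2 libraries was analysed from raw counts. The submitters' processing notes name HTSeq 0.6.1 and HISAT, the tools cutadapt 1.9.1 and bcl2fastq 2.17.1.14, and hg19 as the build. They are silent on annotation, strand and filters. The authors deposited whole-number counts of reads per gene, not normalised, for 52408 genes, and its columns named for EA and Control were matched to the samples titled EA and DMSO, the latter through their treatment label Control, by replicate number. Genes passing filterByExpr (15648) were normalised with TMM factors. The contrast of EA to DMSO was tested with the robust quasi-likelihood F test of edgeR 4.0.16 in R 4.3.3, with Benjamini-Hochberg adjustment over all tested genes. An SE is the log2 fold change over the square root of F. Alternatives were DESeq2 1.42.0, limma-voom (limma 3.58.1), other scalings, filters and thresholds, a replicate block, thinning to 15738089 reads and each library left out. CPM is reads per TMM-scaled library size, and 3 reads in a library, the limit that a count of 0 allows, correspond to between 0.116 and 0.191 CPM (counting error only).

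The 10 genes and the lists were chosen with earlier results of these data known. Named were all 10 genes, in each related list up to 4 lower and 4 higher genes with the smallest p, genes not called or not tested, and a few genes set by name. GPAT4, MLYCD, PPARA and HACD2 were named outside this rule. Of the 4 ratios of reads within a library, that of SCD5 to SCD is not printed, because SCD5 had 4 reads in all, but it was counted in the adjustment. Lengths and overlaps come from GENCODE 29 and promoters from RefSeq, both on GRCh38, another build than the counts. The deviations of same-numbered libraries from their group means correlated at -0.08, 0.03 and -0.02. No shared effect of the replicate number was seen, but so few libraries cannot settle whether the samples were paired. Some genes of the lists are not reported here.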

Additional observations from a re-analysis of the deposited data

How the results depend on the processing

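Over 17 alternative analyses the number of the 10 genes called lower was 9 or 10, and 9 of the genes kept their direction and call in each. ACSS2 lost its call in 8, its log2 fold change ranging from -0.33 to -0.15. Of the other 9, GPAM ranged from -6.34 (without EA replicate 3) to -5.11, FADS2 from -3.34 to -3.17, PNPLA3 from -3.12 to -2.51, SCD from -2.21 to -2.02 and ACLY from -0.76 to -0.53. With no filter on low counts the median over the 15648 genes of the filtered analysis moved from 0.00 to -0.13 (it was 0.25 over all 32015 genes then tested), and fold changes of single genes moved with it. With the replicate number as a block 12537 of 15648 genes were called, against 12680 without it, and all 10 genes were called lower. The block left the difference in the log2 ratio of FADS2 to FADS1 at -1.64 (exact sign-flip p = 0.25, the smallest that 3 differences allow). Among related genes, HACD2 lost its call in 10 analyses, among them without DMSO replicate 1 or 3 and without EA replicate 1 or 2, and MBTPS1 in 8. With a minimum fold of 1.2, SCAP, SREBF2 and ELOVL5 were not called (adjusted p = 0.433, 0.503 and 0.0997 in edgeR). HACD3 gained one without DMSO replicate 2 or EA replicate 3. Among the 10 genes, depth limits the EA values of GPAM and PNPLA3 most, with 33 to 125 and 37 to 95 reads per library.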
